A study of Homo sapiens with 12 samples.

Results

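Solute carriers are the membrane proteins that move nutrients, ions and metabolites into cells and between their compartments. The genes described here are the expressed protein-coding genes with a solute carrier symbol (SLC followed by a digit) in MV4-11 cells, an established human acute myeloid leukaemia line. A gene was taken when its count reached 1 CPM (counts scaled to a fixed library total, here the column sum) in at least 3 of the 12 libraries. Of 374 protein-coding genes with such a symbol in a table of 58051 genes, 193 met this level and 78 had no count in any library. The members were thus chosen by their measured level, which was read over all 12 libraries without regard to treatment. No member reached it in libraries of 1 group alone, and 179 of the 193 reached it in every library. As 3 libraries suffice, the rule still favours genes that are high in 1 group. SLC11A1 was just inside the threshold with 1.01 CPM in the lowest of its 3 highest libraries, and SLC8A1 was just outside with 0.993 CPM. By symbol, 187 of the 193 belong to 43 numbered carrier families. The other 6 carry a carrier's symbol without being carriers.

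Cells were treated for 6 h with 0.1% DMSO, the vehicle, or with 200 nM of palbociclib, BSJ-03-123 or YKL-06-102, and polyadenylated RNA of 3 libraries a group was sequenced. Palbociclib inhibits the kinases CDK4 and CDK6, which drive entry into S phase. BSJ-03-123 and YKL-06-102 are named by the submitters as phthalimide conjugates directed at CDK6, and the phthalimide group is known as a ligand of cereblon, the substrate receptor of a ubiquitin ligase. The design compares each compound with DMSO and the compounds with each other at 1 dose and 1 time. MV4-11 is a single line, and nothing in the labels says that the 3 libraries of a group came from separate cultures, so the p-values below speak of variation among these 12 libraries, part or all of which may be technical.

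The families are numbered by sequence, and their cargo follows the number in broad terms. SLC1, SLC7 and SLC38 carry amino acids, SLC2 sugars, SLC25 the metabolites that cross the inner mitochondrial membrane, SLC28 and SLC29 nucleosides, SLC30 and SLC39 zinc, and SLC35 the nucleotide sugars used in the Golgi. Proliferating leukaemia cells depend on many of them, since glutamine, essential amino acids, nucleosides, folate and phosphate enter through carriers. Nucleoside carriers also take up nucleoside drugs such as cytarabine. A transcript level says nothing of the amount of carrier protein at a membrane.

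The libraries held between 18764307 and 25539858 counts. The deepest was DMSO replicate 2. The 193 members took 1.29 to 1.34% of all counts in every library. Of 10 myeloid markers, which include FLT3, CD33, MPO and LYZ, 0 were at 0 counts. Their summed level was 2092 to 2094 CPM with DMSO, 2316 to 2343 with palbociclib, 2280 to 2292 with BSJ-03-123 and 2619 to 2639 with YKL-06-102. Of these markers 8 of 10 rose with YKL-06-102, 4 with palbociclib and 3 with BSJ-03-123. Over all tested genes 15.6, 15.6 and 12.4% rose, in that order. Their part in the carrier results was not tested. Of 10 markers of other blood cells 5 were at 0 counts in every library, and the list summed to 43.5 to 56.7 CPM. Most of this was NKG7, with group means of 47.1 to 53.2 CPM as scaled below. The 6 non-blood markers summed to between 137.8 and 173 CPM, with 1 at 0. Most of that sum was PECAM1, with group means of 122 to 150 CPM, while KRT18 stood at 10.3 to 12.4 and KRT8 at 6.53 to 7.85. In bulk RNA, fewer cells of a type and less RNA per cell cannot be told apart.

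Levels below are CPM after scaling by TMM (trimmed mean of M values, which sets the libraries to a common level for most genes). Differences are log2 fold changes with their standard error, and "adjusted p" is the Benjamini-Hochberg adjusted p of edgeR's quasi-likelihood test over all 14214 genes tested. A gene rose or fell where this p was under 0.05. The members were chosen with earlier results of these data known, so counts over classes are descriptions, to be read beside the shares of all tested genes that rose and fell.

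Mitochondrial and amino acid carriers led the solute carrier transcripts in DMSO. Levels were compared per kilobase of a gene's annotated exons, merged, a length that can exceed that of the transcript made. By this measure the highest were SLC25A6 and SLC25A5, both ADP/ATP translocases of the inner mitochondrial membrane. They stood at 368 ± 31.1 and 325 ± 14.9 CPM per kb (SD, n = 3). Next came the glutamine carrier SLC1A5 at 128 ± 10.4 CPM per kb and the large neutral amino acid carrier SLC7A5 at 97.4 ± 6.29 CPM per kb. SLC7A5 and the next member, the scaffold gene SLC9A3R1 at 94.8 ± 6.91 CPM per kb, did not differ beyond their spread. SLC44A1, a choline carrier, held the most counts of any member, 989 CPM, but over its merged exons it stood at 81.2 ± 1.02 CPM per kb. The mitochondrial phosphate carrier SLC25A3 held 660 CPM, more than the 488 of SLC25A5, but was at 74.2 ± 0.663 CPM per kb. The order per kb thus depends on the exon length taken for each gene. SLC25A5, SLC25A6 and SLC7A5 have near-identical copies elsewhere in the genome, so their counts carry the uncertainty of how shared reads were assigned. The 10 members with the most counts in DMSO together held 36.6 to 37.7% of the members' counts in the 12 libraries.

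**Figure D1:**
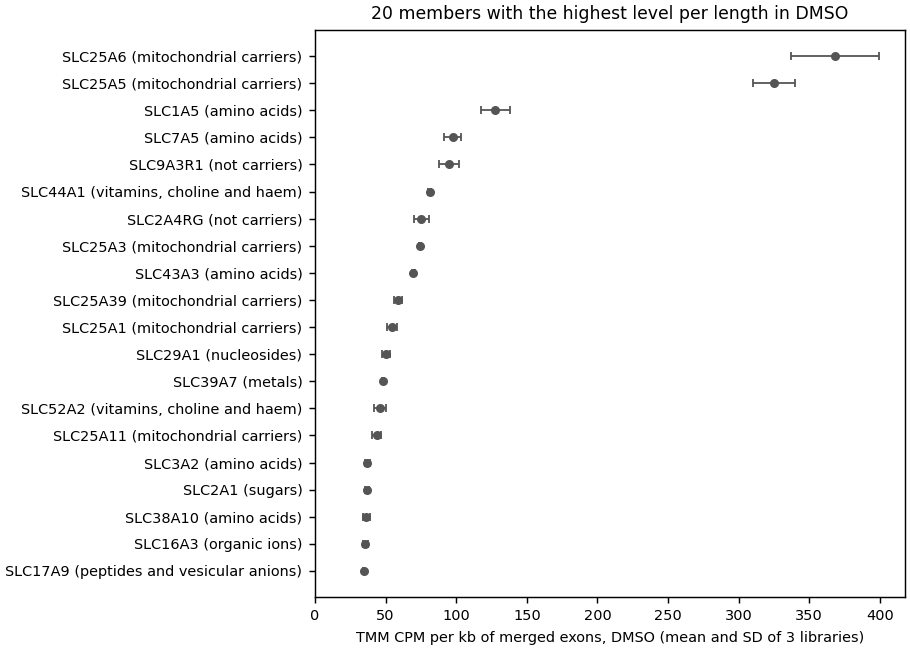
TMM CPM per kilobase of merged exons in DMSO (x axis) for the 20 members with the highest value, each with its class; points are means and bars the SD of 3 libraries. SLC25A6 and SLC25A5 stand at 368 and 325 CPM per kb, SLC1A5 at 128, and the other members below 100.

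Each compound moved a large minority of the members by small amounts. Against DMSO, palbociclib raised 40 and lowered 39 of the 193 members (40.9%), where 33.3% of all tested genes (15.6% up and 17.6% down) and 39.6% of protein-coding genes at the same level were called. BSJ-03-123 raised 38 and lowered 36 (38.3%), against 28.1% of all tested genes (12.4% up and 15.7% down) and 33.9% at the same level. YKL-06-102 raised 45 and lowered 51 (49.7%), against 36.9% (15.6% up and 21.3% down) and 43.5%. The 3 comparisons share the DMSO libraries, so likeness between them is not independent. The shares lay a little above those of genes at the same level, a difference that was not tested. Shares of classes by direction below stand beside all tested genes, which were called less often than genes at the same level. The median log2 fold change of the members was 0.02 with palbociclib, 0.02 with BSJ-03-123 and -0.01 with YKL-06-102, beside 0.01, 0.01 and -0.02 over all tested genes.

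The balance of rises and falls depended on scaling. With library totals in place of TMM, palbociclib raised 55 and lowered 33 members, so that rises made up 62.5% of calls in place of 50.6%. BSJ-03-123 raised 51 and lowered 29, or 63.8% rises in place of 51.4%. YKL-06-102 raised 51 and lowered 43. The number raised by BSJ-03-123 also rested on single libraries: it was 23 without BSJ-03-123 replicate 3 and 25 without DMSO replicate 3, in place of 38. Library totals moved the median of all genes from 0.01 to 0.06 with palbociclib.

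Large changes were few. Among called members, palbociclib moved 3 up and 3 down by at least 1.5-fold, beside 1.19% up and 3.79% down over all tested genes. BSJ-03-123 moved 2 up and 2 down by that size, beside 0.872% and 3.39%. YKL-06-102 moved 14 up and 3 down, beside 3.65% and 3.61%. Of the rises with palbociclib and BSJ-03-123 0 were among the 179 members at 1 CPM in every library, by edgeR, so each was a gene near the threshold, while 10 of the 14 rises with YKL-06-102 were. With YKL-06-102 3 members rose at least 2-fold, where 2.71% of all tested genes moved that far in either direction, and all 3 were of low level: the kidney sodium-chloride cotransporter gene SLC12A3, the antisense gene SLC22A18AS and SLC11A1, a metal carrier of phagosomes in macrophages. SLC12A3 was at 0.733, 1.05 and 0.76 CPM with DMSO and at 2.95, 2.82 and 3.21 with YKL-06-102, a log2 fold change of 1.78 ± 0.219 (adjusted p = 3.16e-08). Its palbociclib and BSJ-03-123 libraries lay between 0.755 and 1.15 CPM, within or just above the DMSO range. The 3 YKL-06-102 libraries of SLC12A3 would by themselves have met the level for membership, and SLC11A1 met it in only 3 libraries. SLC22A18AS overlaps the carrier gene SLC22A18 on the other strand, which held 6.55 times its counts. SLC12A3 and SLC22A18AS were named after their values were seen.

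**Figure D2:**
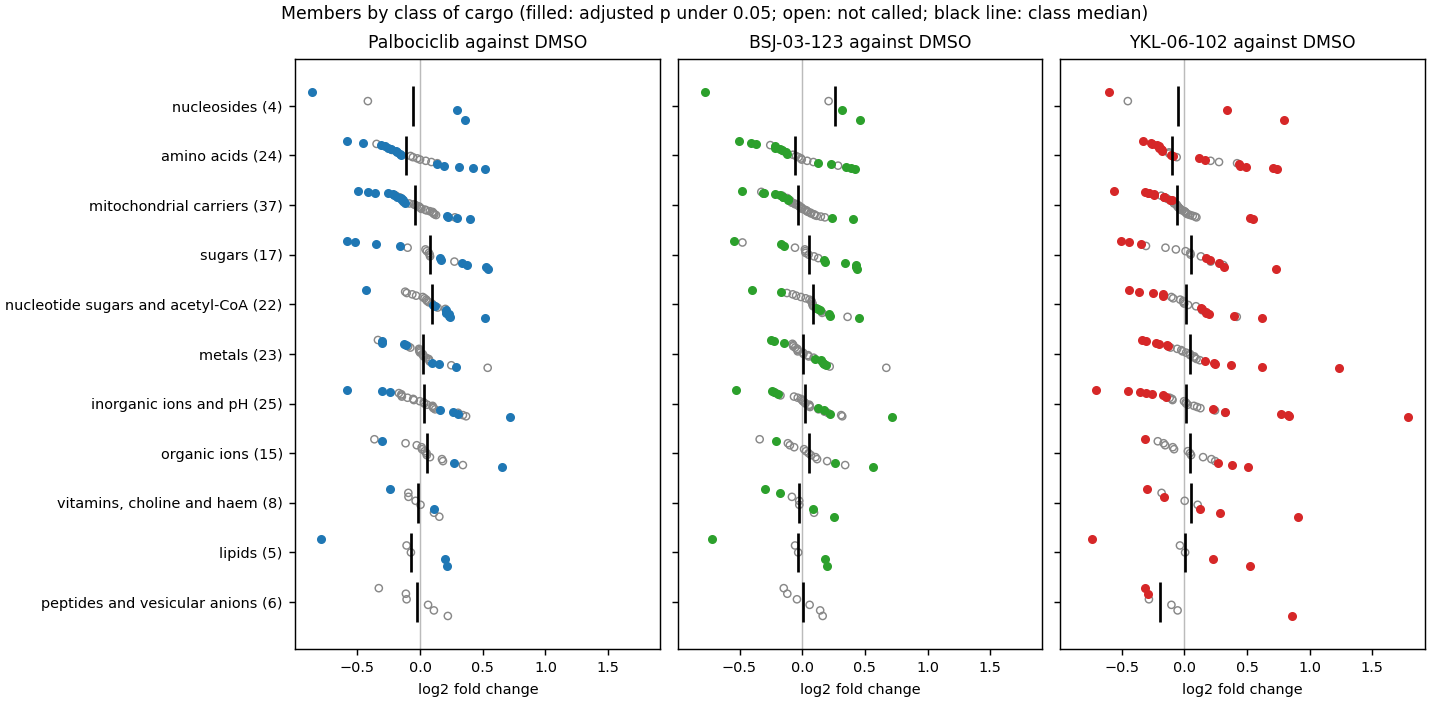
Log2 fold change against DMSO (x axis) of the carriers other than the urea carrier SLC14A1, by class of cargo (rows, number of members in brackets), for palbociclib, BSJ-03-123 and YKL-06-102; filled points are called at adjusted p under 0.05, open points are not, and black lines are class medians. Most points lie within 0.5 of 0, and the lowest nucleoside point in each panel is SLC29A1, at -0.86, -0.78 and -0.60.

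The largest fall of any member with palbociclib and with BSJ-03-123 was that of the equilibrative nucleoside carrier SLC29A1 (ENT1), which moves adenosine, thymidine, uridine and several nucleoside drugs across the plasma membrane. SLC29A1 lies on the plus strand of chromosome 6 (GRCh38, 44219505 to 44234151). The DMSO libraries held 218, 235 and 209.8 CPM. The palbociclib libraries held 124, 122 and 119 CPM, the BSJ-03-123 libraries 129, 128 and 129.8, and the YKL-06-102 libraries 146, 150.4 and 142. No treated library reached the lowest DMSO library, and the groups fell in the order palbociclib, BSJ-03-123, YKL-06-102, DMSO from low to high without overlap. The log2 fold change was -0.86 ± 0.037 with palbociclib, 1.82-fold lower (adjusted p = 3.1e-17). It was -0.78 ± 0.0371 with BSJ-03-123 (adjusted p = 4.39e-16) and -0.60 ± 0.0363 with YKL-06-102 (adjusted p = 1.11e-13). YKL-06-102 left SLC29A1 above palbociclib by 0.26 ± 0.0375 (adjusted p = 2.98e-06).

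Of the 4 nucleoside carriers 2 rose and 1 fell with each compound, where 12.4 to 15.6% of all tested genes rose and 15.7 to 21.3% fell. SLC28A3, a sodium-driven concentrative nucleoside carrier, had 10.4, 9.04 and 10.4 CPM with DMSO and 17.2, 17.4 and 16.7 with YKL-06-102. It rose by 0.80 ± 0.0825 with YKL-06-102 (adjusted p = 5.12e-09) and by 0.46 ± 0.087 with BSJ-03-123 (adjusted p = 0.000135). With palbociclib the rise of 0.30 was called, but not without DMSO replicate 2 (0.22, adjusted p = 0.0686) or palbociclib replicate 2 (0.19, adjusted p = 0.113). SLC29A3, a nucleoside carrier of lysosomes, rose with each compound, by 0.36 ± 0.0768, 0.32 ± 0.0782 and 0.34 ± 0.0762 with palbociclib, BSJ-03-123 and YKL-06-102, from a DMSO level of 13.2 to 15.5 CPM.

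SLC43A3 fell beside SLC29A1. It carries a family number of amino acid carriers, and its product is known as a carrier of purine nucleobases. Its DMSO libraries held 309, 313 and 319.6 CPM. The palbociclib libraries held 213, 210.3 and 205 CPM, the BSJ-03-123 libraries 228, 219 and 218, and the YKL-06-102 libraries 274, 278 and 274. The 4 groups did not overlap, and YKL-06-102 lay between DMSO and the other compounds. The log2 fold change was -0.58 ± 0.0302 with palbociclib (adjusted p = 2.57e-15), -0.50 ± 0.0302 with BSJ-03-123 (adjusted p = 1e-13) and -0.19 ± 0.0297 with YKL-06-102 (adjusted p = 8.56e-06). Between compounds SLC43A3 was higher with YKL-06-102 than with palbociclib by 0.39 ± 0.0301 (adjusted p = 3.56e-11).

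**Figure D3:**
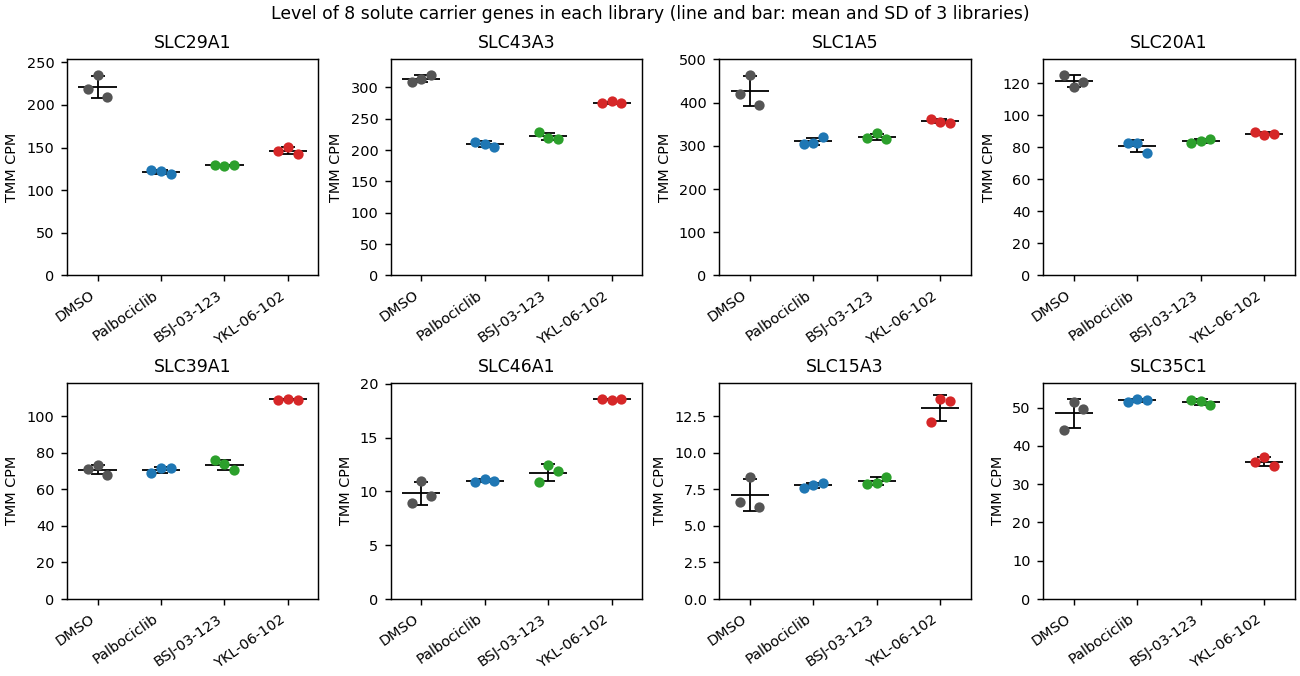
TMM CPM (y axis, from 0) of 8 members in each of the 12 libraries; points are libraries, lines and bars the mean and SD of 3. In the upper row SLC29A1, SLC43A3, SLC1A5 and SLC20A1 are lower in every treated library than in any DMSO library; in the lower row SLC39A1, SLC46A1, SLC15A3 and SLC35C1 stand apart with YKL-06-102.

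Among 24 amino acid carriers, 5 rose and 10 fell with palbociclib, 5 rose and 9 fell with BSJ-03-123, and 7 rose and 11 fell with YKL-06-102. Classes were taken by family number, so this one includes SLC43A3, and the sugar carriers below include SLC5A6. The falls made up 41.7, 37.5 and 45.8% of the class, beside 17.6, 15.7 and 21.3% of all tested genes, and the rises 20.8, 20.8 and 29.2%, beside 15.6, 12.4 and 15.6%. Calls in either direction were 62.5, 58.3 and 75% of the class, beside 39.6, 33.9 and 43.5% of protein-coding genes at the same level. The class median was -0.11, -0.06 and -0.10, and it stayed below 0 with library totals, at -0.07, -0.02 and -0.06. Without DMSO replicate 2 it was -0.12, -0.02 and -0.04. Those that fell included the most abundant plasma membrane carriers. SLC1A5, the main glutamine importer of many tumour cells, had 419, 464 and 395 CPM with DMSO, 305, 307 and 320.3 with palbociclib, 317, 328 and 317 with BSJ-03-123, and 362, 355 and 353 with YKL-06-102. Every treated library lay below every DMSO library, and DMSO replicate 2 was the highest. The log2 fold changes were -0.46 ± 0.0396 (adjusted p = 2.45e-10), -0.41 ± 0.0397 (adjusted p = 2.72e-09) and -0.26 ± 0.0393 (adjusted p = 5.1e-06). SLC7A1, the carrier of arginine and lysine, fell by 0.31 with palbociclib and 0.22 with both other compounds. SLC38A5, which carries glutamine and other neutral amino acids and was named after its values were seen, fell by 0.26, 0.18 and 0.21.

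The heterodimer of SLC7A5 and SLC3A2, which exchanges glutamine for leucine and other essential amino acids, changed less. SLC7A5 fell by 0.16 ± 0.0352 with palbociclib (adjusted p = 0.000643) and by 0.21 ± 0.0352 with YKL-06-102 (adjusted p = 2.66e-05). With BSJ-03-123 it stood at -0.05 ± 0.0352 (adjusted p = 0.326), and it was higher with BSJ-03-123 than with YKL-06-102 by 0.16 ± 0.0352 (adjusted p = 0.00157). SLC3A2, the heavy chain of several SLC7 carriers, fell by 0.19 with palbociclib and 0.18 with YKL-06-102. Its fall of 0.12 with BSJ-03-123 was not called without DMSO replicate 2 (-0.08, adjusted p = 0.0583) or with library totals (-0.07, adjusted p = 0.0926).

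Several less abundant amino acid carriers rose. SLC38A7, a lysosomal glutamine carrier, rose from 7.95 to 9.17 CPM in DMSO to 11.4 to 12.8 with palbociclib, a log2 fold change of 0.51 ± 0.095 (adjusted p = 8.8e-05), and by 0.39 and 0.49 with BSJ-03-123 and YKL-06-102. SLC7A11, which imports cystine in exchange for glutamate, had 6.75, 6.42 and 7.33 CPM with DMSO. It reached 9.14, 8.35 and 9.88 CPM with palbociclib and 8.68, 9.0 and 9.62 with BSJ-03-123, a log2 fold change of 0.42 in each (adjusted p = 0.000955 and 0.00136). With YKL-06-102 SLC7A11 stood at 7.49, 7.59 and 8.48 CPM, or 0.21 ± 0.0974 (adjusted p = 0.0947, and 0.25 with adjusted p = 0.0486 by library totals), and its difference between YKL-06-102 and palbociclib, -0.21 ± 0.0902, was not called (adjusted p = 0.0885). The taurine carrier SLC6A6, named after its values were seen, rose by 0.19 with palbociclib, 0.23 with BSJ-03-123 and 0.44 with YKL-06-102.

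Amino acid carriers also gave some of the clearest differences between YKL-06-102 and the other compounds. SLC1A3, a sodium-driven glutamate and aspartate carrier, held 6.39, 7.3 and 6.62 CPM with DMSO, 5.85, 5.57 and 6.07 with palbociclib, 6.82, 6.65 and 6.56 with BSJ-03-123, and 11.9, 11.3 and 11 with YKL-06-102. The YKL-06-102 libraries stood alone, and its value was 0.97 ± 0.0881 above palbociclib (adjusted p = 8.13e-10). SLC43A2, a carrier of branched-chain and aromatic amino acids, rose with each compound, by 0.31, 0.35 and 0.71 ± 0.0727. SLC38A1, a glutamine carrier named after its values were seen, was at 34.6 to 37.8 CPM with DMSO and at 48.6 to 50 with YKL-06-102. It was 0.59 ± 0.0517 higher with YKL-06-102 than with palbociclib (adjusted p = 4.77e-10). Its fall of 0.15 with palbociclib (adjusted p = 0.0312) was not called without DMSO replicate 2 (-0.14, adjusted p = 0.0607) or 3 (-0.13, adjusted p = 0.0883), or without palbociclib replicate 1 (-0.14, adjusted p = 0.102) or 2 (-0.15, adjusted p = 0.0716). Nor was this fall called with library totals (-0.11, adjusted p = 0.136), by DESeq2 (-0.15, adjusted p = 0.0524) or without the filter on low counts (-0.13, adjusted p = 0.0935).

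The 37 members of family SLC25 had more falls than rises under TMM scaling, as all tested genes had. Most of the family exchange metabolites across the inner mitochondrial membrane, but SLC25A17 serves peroxisomes. With palbociclib 4 rose and 12 fell, with BSJ-03-123 2 rose and 9 fell, and with YKL-06-102 2 rose and 10 fell. The falls were 32.4, 24.3 and 27% of the family, where 17.6, 15.7 and 21.3% of all tested genes fell, and the rises were 10.8, 5.41 and 5.41%, where 15.6, 12.4 and 15.6% rose. The class median was -0.04, -0.04 and -0.06, and with library totals it was 0.01, 0.01 and -0.02, so its sign turned for palbociclib and BSJ-03-123. With library totals 8 rose and 9 fell with palbociclib, and 6 rose and 6 fell with BSJ-03-123. Without DMSO replicate 2 6 rose and 10 fell with palbociclib, 4 rose and 7 fell with BSJ-03-123, and 4 rose and 8 fell with YKL-06-102. SLC25A10, the dicarboxylate carrier that exchanges malate and succinate for phosphate, had 17, 18.7 and 15.4 CPM with DMSO. It fell by 0.49 ± 0.0976 with palbociclib (adjusted p = 0.000201), 0.48 ± 0.0992 with BSJ-03-123 (adjusted p = 0.000414) and 0.56 ± 0.0973 with YKL-06-102 (adjusted p = 2.88e-05). Lack of overlap with DMSO was a condition for naming it.

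The translocases that lead the family by level moved little. SLC25A6 differed from DMSO by 0.01, 0.03 and 0.03 with palbociclib, BSJ-03-123 and YKL-06-102 (adjusted p = 0.875, 0.589 and 0.629). Without DMSO replicate 2, whose 874 CPM stood above the 756 and 759 of the other DMSO libraries, it was called higher with each, at 0.08, 0.10 and 0.12 (adjusted p = 0.0331, 0.00664 and 0.00101). SLC25A5 fell by 0.19 ± 0.0316 with palbociclib, 0.15 ± 0.0317 with BSJ-03-123 and 0.10 ± 0.0315 with YKL-06-102 (adjusted p = 0.0113). The last of these was not called without DMSO replicate 2 (-0.04, adjusted p = 0.238), without YKL-06-102 replicate 1, 2 or 3 (adjusted p = 0.0887, 0.0623 and 0.147), or with library totals (-0.06, adjusted p = 0.0902). SLC25A3 lay between 636 and 666 CPM in all 12 libraries and was called in no comparison. SLC25A20, which carries acylcarnitines for fatty acid oxidation, went up from 12.1 to 12.6 CPM in DMSO to 16 to 16.4 with palbociclib, 16.3 to 16.4 with BSJ-03-123 and 17.1 to 18.2 with YKL-06-102. These changes were 0.40 ± 0.0655, 0.41 ± 0.0664 and 0.53 ± 0.0641.

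YKL-06-102 differed from the other compounds at the mitochondrial carriers SLC25A24 and SLC25A12. SLC25A24, a calcium-dependent carrier of ATP-Mg and phosphate, had 16.6 to 17.5 CPM with DMSO, 15.5 to 17.6 with palbociclib, 16.1 to 17.6 with BSJ-03-123, and 25.8, 24.7 and 24.7 with YKL-06-102. It rose with YKL-06-102 by 0.54 ± 0.061 against DMSO (adjusted p = 2.63e-08) and 0.59 ± 0.0603 against palbociclib (adjusted p = 7.77e-09). SLC25A12, the aspartate-glutamate carrier of the malate-aspartate shuttle, went the other way. Its YKL-06-102 libraries held 19.7, 19.9 and 19 CPM, below the 23 to 28.1 CPM of the other 9, and it was 0.40 ± 0.068 lower than with palbociclib (adjusted p = 4.15e-05). SLC25A12 overlaps exons of the antisense gene METAP1D, which held 0.85 times its counts.

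Sugar carriers changed in both directions. Of 17 in the class, 6 rose and 4 fell with palbociclib, 6 rose and 3 fell with BSJ-03-123, and 5 rose and 3 fell with YKL-06-102. As shares, 35.3, 35.3 and 29.4% of the class rose, beside 15.6, 12.4 and 15.6% of all tested genes, and 23.5, 17.6 and 17.6% fell, beside 17.6, 15.7 and 21.3%. SLC2A1, the glucose carrier GLUT1, lay between 161 and 193 CPM throughout and differed from DMSO by 0.04, 0.02 and -0.07 (adjusted p = 0.46, 0.713 and 0.208). SLC2A5, a fructose carrier also found in leukaemia cells and named after its values were seen, rose by 0.16, 0.17 and 0.32 ± 0.0317 from 128 to 134 CPM. SLC2A6, a glucose carrier of lysosomal membranes, rose with palbociclib by 0.37 ± 0.0716 (adjusted p = 0.00014) and with BSJ-03-123 by 0.34 ± 0.0728 (adjusted p = 0.0006). With YKL-06-102 it stood at 0.13 ± 0.0727 (adjusted p = 0.164). SLC2A3, the glucose carrier GLUT3, was at 3.91 to 4.6 CPM with DMSO, 5.08 to 5.69 with palbociclib, 5.05 to 6.17 with BSJ-03-123 and 4.05 to 4.63 with YKL-06-102. The rise of 0.34 with palbociclib (adjusted p = 0.0302) was not called without DMSO replicate 1 (0.33, adjusted p = 0.0747) or 3 (0.28, adjusted p = 0.115), nor without palbociclib replicate 2 (0.32, adjusted p = 0.0812) or 3 (0.30, adjusted p = 0.0971). DESeq2 did not call this rise either (0.34, adjusted p = 0.0828). SLC2A3 and its near copy SLC2A14 share sequence, so its counts are uncertain.

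SLC45A3, placed among sugar carriers by its family, was the highest rise with palbociclib among members with a mean of at least 4 CPM. It held 5.13, 5.33 and 4.72 CPM with DMSO and 7.23, 7.95 and 6.8 with palbociclib, a log2 fold change of 0.53 ± 0.106 (adjusted p = 0.000234). With BSJ-03-123 and YKL-06-102 it rose by 0.43 and 0.73. SLC37A4, which takes glucose 6-phosphate into the endoplasmic reticulum, fell by 0.52 ± 0.0536, 0.54 ± 0.0546 and 0.34 ± 0.052 from 31.9 to 34.3 CPM. The overlapping antisense gene TRAPPC4 had 2.26 times the counts of SLC37A4. SLC5A6, whose product takes up biotin and pantothenate, fell by 0.16 and 0.15 with palbociclib and BSJ-03-123 and by 0.44 ± 0.0326 with YKL-06-102, where its libraries held 138, 141 and 142 CPM against 185 to 196 with DMSO. The antisense gene ATRAID overlaps SLC5A6 with 0.53 times its counts. SLC5A3, the sodium-driven myo-inositol carrier, stood at 54.5 to 64.3 CPM with DMSO, 44.7 to 48.9 with palbociclib, 52.9 to 54.7 with BSJ-03-123 and 40.8 to 44.6 with YKL-06-102. Its fall was 0.50 ± 0.0544 with YKL-06-102 and 0.35 ± 0.0541 with palbociclib. With BSJ-03-123 the fall of 0.17 ± 0.0538 (adjusted p = 0.0177) was not called with library totals (-0.13, adjusted p = 0.082), without BSJ-03-123 replicate 3 (-0.16, adjusted p = 0.0594), or without DMSO replicate 1 (-0.14, adjusted p = 0.0871) or 3 (-0.13, adjusted p = 0.079). SLC5A3 shares exons on the same strand with MRPS6.

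Carriers of nucleotide sugars and acetyl-CoA, 22 genes of families SLC35 and SLC33 that supply the Golgi and endoplasmic reticulum, had more rises than falls with palbociclib. With this compound 9 rose and 1 fell, and the class median was 0.10 by TMM and 0.15 by library totals. With BSJ-03-123 6 rose and 2 fell, and with YKL-06-102 7 rose and 5 fell. Of the class 40.9, 27.3 and 31.8% rose, beside 15.6, 12.4 and 15.6% of all tested genes, and 4.55, 9.09 and 22.7% fell, beside 17.6, 15.7 and 21.3%. Without DMSO replicate 2 the rises and falls were 7 and 2 with palbociclib and 9 and 3 with YKL-06-102. SLC35D2, a carrier of UDP-sugars, rose by 0.52 ± 0.135 with palbociclib (adjusted p = 0.00348) and 0.62 ± 0.133 with YKL-06-102 (adjusted p = 0.000382), from 3.04 to 5.37 CPM with DMSO. Its rise of 0.45 with BSJ-03-123 (adjusted p = 0.0133) was not called without BSJ-03-123 replicate 1 (0.37, adjusted p = 0.0833) or DMSO replicate 3 (0.27, adjusted p = 0.12). SLC33A1, the acetyl-CoA carrier of the endoplasmic reticulum, rose by 0.21 with palbociclib and 0.17 with YKL-06-102, and was named after its values were seen. With BSJ-03-123 its rise of 0.14 (adjusted p = 0.0231) was not called without BSJ-03-123 replicate 2 (0.11, adjusted p = 0.132) or 3 (0.12, adjusted p = 0.0939) or DMSO replicate 1 (0.12, adjusted p = 0.105).

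SLC35C1, the GDP-fucose carrier of the Golgi, separated YKL-06-102 from every other group. Its libraries held 44.2, 51.6 and 49.6 CPM with DMSO, 51.4, 52.3 and 51.9 with palbociclib, 52, 51.7 and 50.6 with BSJ-03-123, and 35.7, 37.1 and 34.8 with YKL-06-102. The YKL-06-102 libraries all lay below the other 9. The difference was -0.44 ± 0.0501 against DMSO (adjusted p = 4.32e-08) and -0.53 ± 0.0492 against palbociclib (adjusted p = 1.5e-09). Palbociclib and BSJ-03-123 gave 0.09 and 0.08 against DMSO (adjusted p = 0.139 and 0.232), which were called higher without DMSO replicate 2 (0.14 and 0.13, adjusted p = 0.0223 and 0.0462) and with library totals (0.14 and 0.13, adjusted p = 0.0191 and 0.0467). Its family neighbour SLC35C2, named after its values were seen, went up with each compound, by 0.20, 0.22 and 0.40 ± 0.0337.

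Among 23 metal carriers, 3 rose and 4 fell with palbociclib, 5 rose and 3 fell with BSJ-03-123, and 6 rose and 6 fell with YKL-06-102. With library totals the counts were 5 and 2, 6 and 3, and 9 and 5. By TMM 13, 21.7 and 26.1% of the class rose and 17.4, 13 and 26.1% fell, so that with palbociclib both shares lay near the 15.6 and 17.6% of all tested genes; over all genes the shares for BSJ-03-123 were 12.4% up and 15.7% down, and for YKL-06-102 15.6% and 21.3%. SLC39A1, the zinc importer ZIP1 of the plasma membrane, held 71.1, 73.2 and 68 CPM with DMSO, 68.9, 71.4 and 71.6 with palbociclib, 76, 73.6 and 70.7 with BSJ-03-123, and 109, 109.6 and 109 with YKL-06-102. The YKL-06-102 libraries stood far above the other 9, which overlapped. The rise with YKL-06-102 was 0.62 ± 0.0379, 1.54-fold (adjusted p = 1.11e-13). Palbociclib and BSJ-03-123 gave -0.01 and 0.05 (adjusted p = 0.936 and 0.377). Other zinc importers differed in sign with YKL-06-102: SLC39A13 rose by 0.37, while SLC39A3 fell by 0.34 and SLC39A10 by 0.30. These 3 were named after their values were seen.

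The zinc exporter SLC30A1, a standard read-out of cellular zinc because its transcription follows the metal, had 47.3, 45.2 and 50.7 CPM with DMSO and 53.9, 54.3 and 53 with BSJ-03-123. It rose with BSJ-03-123 by 0.17 ± 0.0471 (adjusted p = 0.00577), and its YKL-06-102 libraries held 44.4, 41.6 and 44.1 CPM. The fall of 0.14 with YKL-06-102 (adjusted p = 0.0257) was not called without DMSO replicate 3 (-0.09, adjusted p = 0.169), without YKL-06-102 replicate 1, 2 or 3 (adjusted p = 0.0588, 0.224 and 0.0742), or by DESeq2 (-0.12, adjusted p = 0.0792). Nor was this fall called with library totals (-0.10, adjusted p = 0.12). Between BSJ-03-123 and YKL-06-102 the difference was 0.31 ± 0.0468 (adjusted p = 1.1e-05). The copper importer SLC31A1, also named after its values were seen, fell by 0.31 ± 0.0594 with palbociclib and 0.25 ± 0.0599 with BSJ-03-123, from 27.9 to 30.7 CPM. With YKL-06-102 it differed from DMSO by 0.01 ± 0.0569 (adjusted p = 0.879), and from palbociclib by 0.32 ± 0.0581 (adjusted p = 9.45e-05). SLC39A14, an importer of zinc, iron and manganese, fell by 0.13 with YKL-06-102 and by 0.11 with palbociclib, the latter not with library totals (-0.06, adjusted p = 0.107). The iron exporter SLC40A1 was below the level for membership.

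Among 25 carriers of inorganic ions, 4 rose and 3 fell with palbociclib, 4 rose and 4 fell with BSJ-03-123, and 6 rose and 7 fell with YKL-06-102. The rises of 16, 16 and 24% and the falls of 12, 16 and 28% stand beside 15.6, 12.4 and 15.6% and 17.6, 15.7 and 21.3% of all tested genes, so that the shares with palbociclib and BSJ-03-123 were near those of all genes. With library totals 7 rose and 3 fell with palbociclib, and by DESeq2 2 rose and 4 fell with BSJ-03-123. SLC20A1, a sodium-driven phosphate importer, fell most among them with palbociclib and BSJ-03-123. It held 125, 118 and 121 CPM with DMSO, 82.5, 83 and 76.4 with palbociclib, 82.6, 83.9 and 85.4 with BSJ-03-123, and 89.4, 87.9 and 88.3 with YKL-06-102. All 9 treated libraries lay well below the lowest DMSO library. The log2 fold changes were -0.59 ± 0.0376 (adjusted p = 3.33e-13), -0.53 ± 0.0378 (adjusted p = 4.54e-12) and -0.45 ± 0.037 (adjusted p = 6.83e-11).

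SLC24A1, a sodium-calcium-potassium exchanger, rose by 0.84 ± 0.068 with YKL-06-102 from DMSO levels of 10.2 to 10.5 CPM. A smaller rise with BSJ-03-123 was called, but not without DMSO replicate 1 (0.20, adjusted p = 0.0795) or 3 (0.21, adjusted p = 0.0637) or BSJ-03-123 replicate 1 (0.22, adjusted p = 0.0503) or 3 (0.19, adjusted p = 0.1). DESeq2 did not call this rise either (0.22, adjusted p = 0.0853). SLC24A1 overlaps DENND4A, an antisense gene with 8.98 times its counts. Without strand in the counting, which the sources used here do not give, reads of the pair cannot be told apart.

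The lactate carriers differed from each other. SLC16A1, the lactate and pyruvate carrier MCT1, fell with each compound, by 0.31 ± 0.0334, 0.21 ± 0.0335 and 0.32 ± 0.0333, from 121 to 125 CPM to between 97.7 and 108.5 CPM. SLC16A3, the lactate exporter MCT4, was at 309 to 338 CPM with DMSO and between 317 and 343 CPM in the treated libraries. Its differences of 0.05, 0.05 and 0.05 were not called (adjusted p = 0.289, 0.337 and 0.362). Without DMSO replicate 2 they were 0.09, 0.09 and 0.11 and were called (adjusted p = 0.0305, 0.0409 and 0.00934). With library totals they were called with palbociclib (0.10, adjusted p = 0.025) and BSJ-03-123 (0.09, adjusted p = 0.041). BSG, the chaperone of both, was at 874 ± 60.4 CPM with DMSO (SD, n = 3) and was called with no compound. Of 15 organic ion carriers as a class, 2 rose and 1 fell with palbociclib, 2 rose and 1 fell with BSJ-03-123, and 3 rose and 1 fell with YKL-06-102. These are 13.3, 13.3 and 20% of the class higher and 6.67% lower each time, where 15.6, 12.4 and 15.6% of all tested genes rose and 17.6, 15.7 and 21.3% fell. By DESeq2 0 rose and 1 fell with palbociclib and with BSJ-03-123.

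Vitamin, choline and haem carriers numbered 8. SLC46A1, the proton-coupled folate carrier, held 8.9, 11 and 9.55 CPM with DMSO and 18.6, 18.5 and 18.6 with YKL-06-102. Palbociclib and BSJ-03-123 libraries lay between 10.9 and 12.4 CPM, overlapping DMSO. The rise with YKL-06-102 was 0.91 ± 0.0767, 1.87-fold (adjusted p = 8.86e-11), and 0.75 ± 0.0732 against palbociclib (adjusted p = 3.27e-09). The rise of 0.25 with BSJ-03-123 (adjusted p = 0.0247) was not called by DESeq2 (0.25, adjusted p = 0.0539), without BSJ-03-123 replicate 2 (0.20, adjusted p = 0.13) or 3 (0.23, adjusted p = 0.0749), or without DMSO replicate 1 (0.18, adjusted p = 0.156) or 3 (0.22, adjusted p = 0.077). With palbociclib SLC46A1 was called only without DMSO replicate 2 (0.25, adjusted p = 0.0327). SLC19A1, the reduced folate carrier that also imports methotrexate, was the more abundant per length in DMSO, at 14.4 ± 1.11 CPM per kb against 1.25 ± 0.135 CPM per kb for SLC46A1. Both overlap an antisense gene by exon. SLC46A1 shares 4421 bases with SARM1, which held 0.17 times its counts, and SLC19A1 shares 1401 with COL18A1, at 0.28 times. With the strand setting not known, the levels of both are uncertain. SLC19A1 fell by 0.24 ± 0.0465 with palbociclib (adjusted p = 0.000182). It also fell by 0.17 ± 0.0467 with BSJ-03-123 (adjusted p = 0.00506), though not without BSJ-03-123 replicate 1 (-0.13, adjusted p = 0.0515). Its fall of 0.16 ± 0.0461 with YKL-06-102 (adjusted p = 0.00603) was not called without DMSO replicate 2 (-0.07, adjusted p = 0.155) or YKL-06-102 replicate 2 (-0.11, adjusted p = 0.115). SLC48A1, a lysosomal haem carrier named after its values were seen, rose with YKL-06-102 by 0.29 ± 0.0651. The abundant choline carrier SLC44A1 rose by 0.11 ± 0.0296 with palbociclib and 0.12 ± 0.0296 with YKL-06-102. Its rise of 0.09 ± 0.0296 with BSJ-03-123 (adjusted p = 0.0312) was not called without BSJ-03-123 replicate 2 (0.07, adjusted p = 0.165) or 3 (0.08, adjusted p = 0.105) or DMSO replicate 1 (0.08, adjusted p = 0.116).

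Of 6 peptide and vesicular carriers edgeR called 0 with palbociclib and 0 with BSJ-03-123, as did DESeq2, with 0 and 1 at an unadjusted p under 0.05, while 1 rose and 2 fell with YKL-06-102. Without DMSO replicate 2, 0 rose and 1 fell with palbociclib and 1 rose and 1 fell with BSJ-03-123. Library totals gave 1 rise and 0 falls with each. Of all tested genes 33.3, 28.1 and 36.9% were called with palbociclib, BSJ-03-123 and YKL-06-102. The one that rose with YKL-06-102 was SLC15A3, which exports histidine and small peptides from lysosomes of immune cells. It had 6.65, 8.35 and 6.29 CPM with DMSO, 7.6, 7.82 and 7.91 with palbociclib, 7.88, 7.94 and 8.35 with BSJ-03-123, and 12.1, 13.7 and 13.5 with YKL-06-102. The YKL-06-102 libraries stood above the other 9. Its rise was 0.86 ± 0.0937 (adjusted p = 1.18e-08). With BSJ-03-123 SLC15A3 stood at 0.16 ± 0.103 (adjusted p = 0.261), and it was called higher without DMSO replicate 2 (0.31, adjusted p = 0.0298). Among 5 carriers and activators of long-chain fatty acids, SLC27A2 fell by 0.79 ± 0.0921, 0.72 ± 0.093 and 0.74 ± 0.0902 from 13.4 to 14.6 CPM. The antisense gene ATP8B4 overlaps SLC27A2 with 7.69 times its counts.

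The 6 members that are no carriers include SLC9A3R1, the scaffold NHERF1 of membrane proteins. SLC9A3R1 held 215, 237 and 206 CPM with DMSO and 171, 168 and 168 with YKL-06-102. It fell there by 0.38 ± 0.0416 (adjusted p = 1.72e-08) and was -0.03 and -0.08 with palbociclib and BSJ-03-123 (adjusted p = 0.639 and 0.185).

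The compounds were compared directly in 3 pairs, each with p adjusted over all genes. BSJ-03-123 and palbociclib differed in 0 of 193 members, where 0.155% of all tested genes were called. By edgeR 17 members had an unadjusted p under 0.05, and DESeq2 and limma-voom also called 0. The 95% interval of the difference lay within 1.25-fold either way for 153 members, 79.3% of them, and within 1.5-fold for 180. For SLC29A1 the interval ran from 0.01 to 0.16 on the log2 scale, for SLC43A3 from 0.02 to 0.14, and for SLC1A5 from -0.04 to 0.13. For SLC5A3 it ran from 0.07 to 0.30 around 0.18 (adjusted p = 0.23). For SLC46A1 the values of the 2 groups overlapped. These intervals bound the differences and do not show that the compounds act alike.

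YKL-06-102 differed from palbociclib in 70 members, of which 38 were higher and 32 lower (36.3%), where 24.7% of all tested genes (12.7% up and 11.9% down) and 29.3% of protein-coding genes at the same level were called. The number lower rested on single libraries: it was 19 and 21 without palbociclib replicates 1 and 2, and 17, 20 and 20 without YKL-06-102 replicates 1, 2 and 3, while 35 to 39 were higher in these fits. Of the calls 8 were at least 1.5-fold higher and 2 at least 1.5-fold lower, beside 2.91% and 1.34% over all tested genes. BSJ-03-123 differed from YKL-06-102 in 62 members, 27 higher and 35 lower with BSJ-03-123 (32.1%), where 20.1% of all tested genes (9.74% up and 10.4% down) and 24.1% at the same level were called. With DESeq2 the split of BSJ-03-123 against YKL-06-102 was 17 higher and 34 lower. Without BSJ-03-123 replicate 1 it was 17 and 33, and without YKL-06-102 replicate 2 it was 17 and 35. The comparisons share the YKL-06-102 libraries, so their lists are not independent. Among called members of at least 4 CPM without overlap, the genes higher with YKL-06-102 than with palbociclib were led by SLC1A3, SLC46A1, SLC15A3, SLC39A1 and SLC25A24, and the lower ones included SLC35C1, SLC17A5, SLC25A12 and SLC9A3R1. SLC17A5, a lysosomal exporter of sialic acid, was 0.50 ± 0.122 lower than with palbociclib (adjusted p = 0.00243). The myeloid markers were also higher with YKL-06-102 than with palbociclib, 7 of 10 by the same test with 1 lower, and their part in these differences was not tested.

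**Figure D4:**
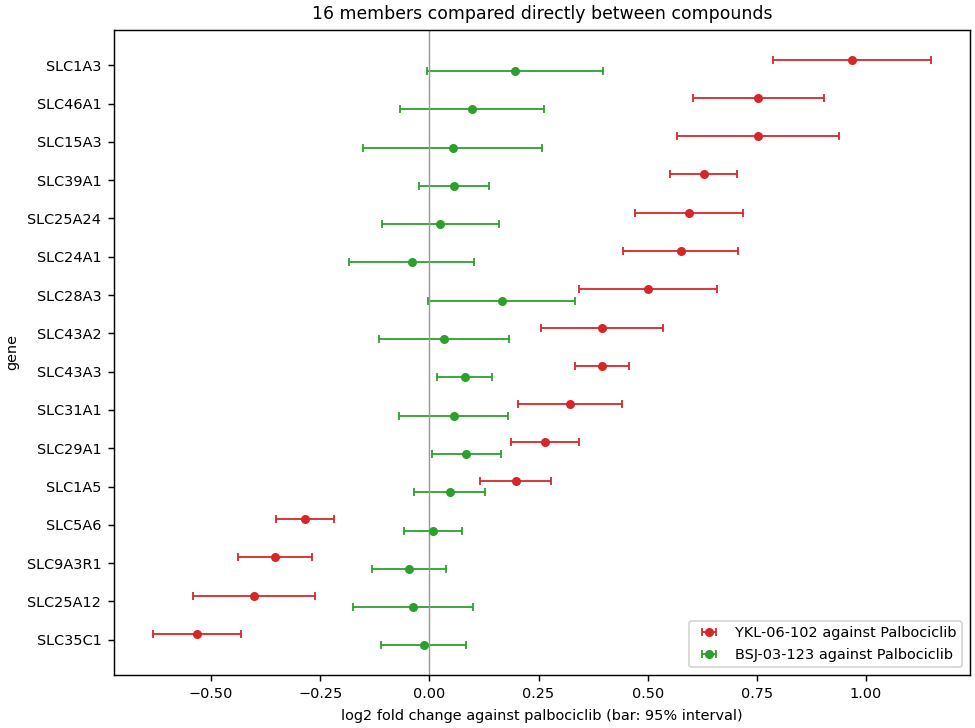
Log2 fold change (x axis) of 16 members with YKL-06-102 and with BSJ-03-123, each against palbociclib; points are edgeR estimates and bars 95% intervals. For YKL-06-102 every interval shown excludes 0, from SLC1A3 at 0.97 to SLC35C1 at -0.53, while the BSJ-03-123 points lie between -0.05 and 0.20.

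Carriers that bear other symbols, and partners of carriers, formed a second list of 41 genes, 36 of them tested. With palbociclib 6 rose and 7 fell, with BSJ-03-123 3 rose and 6 fell, and with YKL-06-102 6 rose and 9 fell. The rises were 16.7, 8.33 and 16.7% of those tested, beside 15.6, 12.4 and 15.6% of all tested genes, and the falls 19.4, 16.7 and 25%, beside 17.6, 15.7 and 21.3%, so that the list lay near all genes. FLVCR2, known as a choline carrier of the same superfamily as many solute carriers, had the largest rise. It went from 14.9 ± 0.345 CPM with DMSO (SD, n = 3) to 17.7 with palbociclib, 21.2 with BSJ-03-123 and 30.3 ± 0.596 with YKL-06-102. The last was a log2 fold change of 1.03 ± 0.0616 (adjusted p = 5.84e-14). EMB, an ancillary protein of lactate carriers, fell with YKL-06-102 by 0.20 ± 0.033. MPC2, a subunit of the mitochondrial pyruvate carrier, fell by 0.25 with BSJ-03-123 and 0.28 with YKL-06-102. Its partner MPC1 was not called with any compound. These genes of the list were named after their values were seen.

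Promoter windows from RefSeq (GRCh38.p14), 250 bases before to 50 after the listed start, matched 157 of the 193 members. For each gene symbol only the first listed window was taken, so any other start of a gene was not searched. Those of 5 members are printed to show the start regions of genes that moved with every compound (SLC29A1, SLC20A1, SLC25A17) or with YKL-06-102 (SLC39A1, SLC46A1). SLC25A17, the carrier of cofactors into peroxisomes, fell by 0.36, 0.31 and 0.28, and was chosen after its values and its promoter were seen. Capitals mark letters of an E-box (CACGTG) or of an E2F-type motif (TTTCGCGC, TTTGGCGC, TTTCCCGC or TTTGCCGC), each searched on both strands, with no letters shared between the motifs shown.
SLC29A1 (chr6:44219365-44219664, plus strand): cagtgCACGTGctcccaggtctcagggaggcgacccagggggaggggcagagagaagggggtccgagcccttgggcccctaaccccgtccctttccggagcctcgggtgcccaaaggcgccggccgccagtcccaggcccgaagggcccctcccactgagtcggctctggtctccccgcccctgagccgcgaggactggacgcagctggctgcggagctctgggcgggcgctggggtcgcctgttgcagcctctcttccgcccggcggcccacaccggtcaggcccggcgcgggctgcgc
SLC20A1 (chr2:112645689-112645988, plus strand): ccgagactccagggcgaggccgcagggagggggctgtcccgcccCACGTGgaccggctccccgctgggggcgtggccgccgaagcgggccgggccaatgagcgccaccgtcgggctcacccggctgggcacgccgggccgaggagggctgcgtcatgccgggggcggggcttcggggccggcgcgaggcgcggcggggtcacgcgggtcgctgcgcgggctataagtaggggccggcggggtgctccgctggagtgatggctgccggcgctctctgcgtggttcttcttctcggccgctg
SLC25A17 (chr22:40819297-40819596, minus strand): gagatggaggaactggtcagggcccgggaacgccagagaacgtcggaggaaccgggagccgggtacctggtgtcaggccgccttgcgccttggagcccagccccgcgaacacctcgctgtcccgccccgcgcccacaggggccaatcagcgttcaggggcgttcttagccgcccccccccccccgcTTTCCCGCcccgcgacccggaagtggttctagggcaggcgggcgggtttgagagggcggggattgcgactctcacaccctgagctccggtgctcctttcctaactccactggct
SLC39A1 (chr1:153968135-153968434, minus strand): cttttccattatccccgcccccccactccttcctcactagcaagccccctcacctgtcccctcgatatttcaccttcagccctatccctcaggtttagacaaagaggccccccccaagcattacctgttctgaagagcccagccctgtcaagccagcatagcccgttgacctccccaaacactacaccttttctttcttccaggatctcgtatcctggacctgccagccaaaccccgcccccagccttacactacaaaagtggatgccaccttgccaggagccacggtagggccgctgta
SLC46A1 (chr17:28406163-28406462, minus strand): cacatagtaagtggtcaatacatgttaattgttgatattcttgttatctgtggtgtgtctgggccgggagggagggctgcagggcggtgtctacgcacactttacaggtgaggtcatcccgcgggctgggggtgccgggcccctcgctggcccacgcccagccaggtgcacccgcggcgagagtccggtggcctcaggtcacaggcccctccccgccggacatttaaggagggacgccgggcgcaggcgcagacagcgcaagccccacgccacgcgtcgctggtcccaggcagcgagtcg
Counted from the start, the E-box letters begin at -245 in SLC29A1 and at -206 in SLC20A1, and the E2F-type letters at -64 in SLC25A17. The windows taken for SLC39A1 and SLC46A1 held neither motif.

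Over the matched members 20 of 157 windows held the E-box (12.7%), beside 7.26% of all 35116 windows in the table and 10.5% of those of protein-coding genes at the same level. The 35116 windows were not reduced to 1 a symbol, as those of the other sets were. The E2F-type letters were in 10 of 157 (6.37%), beside 3.31% and 5.72%. Among members that fell with palbociclib, 3 of 31 held E2F-type letters: SLC25A11, SLC25A17 and SLC31A1. The fall of SLC25A11, the oxoglutarate carrier and also named after its values were seen, was not called without DMSO replicate 2 (-0.09, adjusted p = 0.0734). Among members that were not called with palbociclib 5 of 97 did (5.15%, beside 9.68% of those that fell), and among those that rose 2 of 29 (6.9%). With BSJ-03-123 the letters were in 4 of 31 that fell (12.9%), 2 of 29 that rose (6.9%) and 4 of 97 not called (4.12%). With YKL-06-102 the share was lower among those that fell than among those not called: 2 of 43 that fell (4.65%), 1 of 34 that rose (2.94%) and 7 of 80 not called (8.75%). The E-box was in 16.1% of members that fell with palbociclib, 10.3% of those that rose and 12.4% of those not called. With BSJ-03-123 its shares were 12.9, 10.3 and 13.4% in that order, and with YKL-06-102 14, 5.88 and 15%. The shares of both motifs rest on few windows and were not tested. A match is a run of letters in this window and says nothing of binding.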

How the data were processed

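RNA of 12 libraries was counted per gene. Per the submitters' processing notes, the tools were Trimmomatic 0.36, STAR 2.5.2b and HTSeq with hg38; the authors deposited raw counts. For the annotation release and strand setting, the sources used here give nothing. By exon 51 members overlap another counted gene that held at least 0.1 times their counts, and not all are marked in the text. Unmarked ones include SLC39A1 (with CREB3L4, 0.16 times), SLC16A3 (CSNK1D, 0.44), SLC25A11 (RNF167, 1.09) and SLC15A3 (TMEM132A, 0.11), all antisense. Names came from GENCODE 29, with 604 of 58051 IDs unmatched.

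Counts were fitted with edgeR 4.0.16 (R 4.3.3; TMM; filterByExpr, minimum count 10 and total 15; 4 groups; quasi-likelihood test; Benjamini-Hochberg over 14214 genes; threshold 0.05). The fit was tested on simulated data. SEs are Wald errors. Alternatives were library totals, DESeq2 1.42.0, limma-voom (limma 3.58.1), no filter, 2-group fits, a replicate block, each library left out, and members at 1 CPM in all 12 libraries.

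The members, gene lists and tests were chosen with earlier results of these data known. Genes named without remark came from a rule: called members with a mean of at least 4 CPM and no overlap, the 8 highest and 8 lowest of each comparison with DMSO and 5 of each between compounds, the 10 most abundant in DMSO, and a list of known carriers. SLC7A6OS and SLC22A18AS were moved to the genes that are not carriers after names were seen. For genes that the rule took by their call, lack of overlap in that comparison was a condition and adds no support. Genes outside the rule are marked in the text. Some genes that the rule names are not reported here.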

Additional observations from a re-analysis of the deposited data

How the results depend on the processing

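In none of the alternatives did the total of called members, both directions together, move by over 1.5 times. By direction some did: without 1 library the members higher with BSJ-03-123 went from 38 to as few as 23, those lower with YKL-06-102 than with palbociclib from 32 to 17, and those higher with BSJ-03-123 than with YKL-06-102 from 27 to 17, the last also by DESeq2. Leaving out 1 library gave 65 to 75 members with palbociclib, 54 to 71 with BSJ-03-123, 85 to 99 with YKL-06-102, 0 for BSJ-03-123 against palbociclib, 52 to 62 for YKL-06-102 against palbociclib and 49 to 56 for BSJ-03-123 against YKL-06-102. Over 474 values of named genes and 5688 alternative values, 5406 kept their side of the threshold, 238 lost the call and 44 gained one. With a call in either fit, 0 reversed direction. A change of sign with no call in either fit was counted as kept. Correlations did not settle whether replicate numbers pair the libraries. Same-numbered libraries correlated at -0.162 to 0.229 over 10348 genes, and 2 of 18 pairs passed 0.1. Differently numbered libraries correlated at -0.21 to 0.184, and 5 of 36 pairs passed 0.1. Of 12 libraries 7 correlated best with a library of their own number. With the replicate block the counts were 79, 71, 96, 0, 70 and 61 in the order above. Depth limits the low genes: the median SE against DMSO with palbociclib was 0.21 for the 30 members under 4 CPM and 0.0399 for the 76 at 40 CPM or more.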
